A study of Mus musculus with 4 samples.

Results

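Testis macrophage marker transcripts were followed in RNA recovered with FLAG-tagged NANOS2 and in the starting material, from mouse testis at postnatal day 7. A set of 10 genes was listed as markers of these cells, and probes were assigned to them through the RefSeq accession that each array probe carries. Of the 10 genes 8 had a probe, with 9 probes in all (2 for Aif1), out of 16358 genes with a symbol and 41174 probes on the array. Csf1r and Cd68 had no probe matched through their RefSeq accessions and are not analysed here. All 9 probes were well above background on all 4 arrays.

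All samples came from mice of the same genotype, which carry a transgene of the Nanos2 enhancer driving 3xFLAG-tagged Nanos2 with its 3′ untranslated region. The Input group holds 2 arrays of testis RNA before the immunoprecipitation, and the FLAG IP group 2 arrays of RNA recovered with the FLAG tag. The series describes the duplicates as biological, and the labels name no animals and do not say whether testes were pooled. Titles and characteristics give postnatal day 7, which is used here, although a description field names a fetal gonad. No array of FLAG-precipitated RNA from untagged testis was analysed here, so a change compares how much of the recovered RNA and of the starting RNA a transcript made up, and is no measure of binding.

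Macrophages are the most abundant immune cells of the testis and lie in the interstitium among Leydig cells and on the surface of the seminiferous tubules. They depend on the growth factor receptor CSF1R, take up debris through scavenger and lectin receptors, and are a main source of the complement component C1q in many tissues. In fetal and newborn testes NANOS2 binds RNA in the germ cells, and the study set the RNA recovered with its tagged form against the starting RNA to find the transcripts associated with it. The macrophage markers are transcripts of a cell type other than the germ cells in which the Nanos2 enhancer is known to act.

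A level is the log2 signal of a probe on an array less the log2 of that array's 75th percentile signal. A change is FLAG IP minus Input on that log2 scale, with limma's moderated standard error and an adjusted p from the same fit over all tested probes. A probe is called at an adjusted p under 0.05. The share of probes detected above background was 66.3% to 68.4% over the arrays, and the 75th percentile signal ranged from 1019 to 1676, lower in the FLAG IP. With 2 arrays per group the number of arrays limits the precision. In the Input, a level depends on both the number of cells of a type and their RNA per cell, which cannot be told apart. A change between the groups is a measure of neither.

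The macrophage markers were lower in the FLAG IP to very different degrees. Tyrobp and Aif1 fell 2.60-fold or more, Fcer1g and Mrc1 fell 1.83-fold and 1.80-fold, and C1qa, C1qb, C1qc and Cd14 were not called. In limma 5 of the 9 probes, of 4 genes, were called lower and 0 higher, where 20.0% of the 27830 tested probes were called lower and 15.6% higher. Of the 9 probes 3 were called and at least 2-fold lower, against 7.99% of all tested probes, and all 9 had a change under 0, against 57.2%. At an unadjusted p under 0.05 in limma the lower probes numbered 7 and the higher ones 0. The share of all tested probes at that threshold was not worked out, so these counts are not read as a result. The median change of the 9 probes was −0.85, a 1.80-fold lower level, beside −0.13 for all tested probes. Both FLAG IP arrays lay below both Input arrays for 8 of the 9 probes, which was so for 43.3% of all tested probes. The summed signal of the 9 probes, in units of the 75th percentile signal, was 5.55 and 5.49 on the Input arrays and 3.13 and 3.19 on the FLAG IP arrays.

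**Figure D1:**
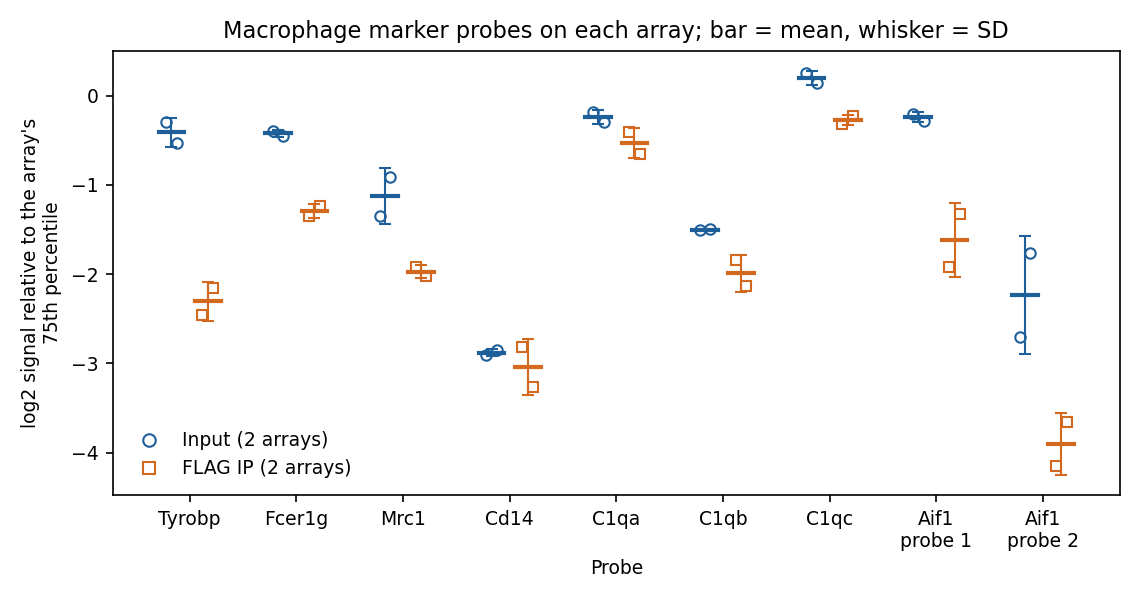
Log2 signal relative to the 75th percentile of the array (vertical axis) for the 9 probes of the 8 macrophage markers (horizontal axis), with circles for the 2 Input arrays, squares for the 2 FLAG IP arrays, bars for means and whiskers for SD. The groups are far apart for Tyrobp (means −0.41 and −2.30), close for C1qa (−0.24 and −0.53) and overlapping for Cd14.

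Tyrobp and Fcer1g encode small transmembrane adaptors that carry an immunoreceptor tyrosine-based activation motif (ITAM) and pass signals from receptors lacking one of their own. Tyrobp (DAP12, RefSeq NM_011662) had levels of −0.30 and −0.53 on the Input arrays and of −2.46 and −2.15 on the FLAG IP arrays. The arrays of the groups were separated by 1.62, more than the distance between the replicates of either group. Tyrobp fell by 1.89 ± 0.18 (SE, limma adjusted p = 0.00605), or 3.71-fold, which placed it at percentile 1.83 of the changes of all tested probes. Its call held in limma without any 1 of the 4 arrays, with changes between −2.05 and −1.74.

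Fcer1g (NM_010185), the common gamma chain of activating Fc receptors, had levels of −0.40 and −0.45 in the Input and of −1.35 and −1.24 in the FLAG IP. Replicates were close together in both groups, and the groups did not overlap. Fcer1g fell by 0.87 ± 0.14 (limma adjusted p = 0.0140), or 1.83-fold. The call ended without Input replicate 1 (change −0.85, adjusted p = 0.111) or Input replicate 2 (−0.90, adjusted p = 0.0981).

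The pair was also compared within each array, where array scaling cancels out. Such a difference between 2 probes has no meaning as a level, and only its shift between the groups is read. The level of Tyrobp minus that of Fcer1g was 0.10 and −0.08 on the Input arrays and −1.11 and −0.91 on the FLAG IP arrays. The difference thus shifted by −1.02 between the groups, against a largest gap of 0.20 between replicates. With 2 arrays per group an exact two-sided permutation test cannot go below p = 0.333, which it gave here. The sizes of change of the adaptors thus differed by more than the gap between replicates, and no other test of this difference was made.

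Aif1 encodes IBA1, an actin- and calcium-binding protein widely used to stain macrophages and microglia. Both of its probes (NM_019467) were called. The brighter probe had levels of −0.20 and −0.28 in the Input and of −1.91 and −1.32 in the FLAG IP, and fell by 1.38 ± 0.24 (limma adjusted p = 0.0159), or 2.60-fold. The dimmer probe had −2.70 and −1.77 in the Input and −4.15 and −3.65 in the FLAG IP, and fell by 1.67 ± 0.37 (adjusted p = 0.0283), or 3.17-fold. Neither probe's groups overlapped, and the dimmer probe had the widest replicate gap of all member probes in the Input, at 0.94. Every call of Aif1 was open to a single array. The brighter probe lost its call without Input replicate 1 (−1.34, adjusted p = 0.0818) or Input replicate 2 (−1.42, adjusted p = 0.0723), and the dimmer one without Input replicate 2 (−1.20, adjusted p = 0.0853) or FLAG IP replicate 1 (−1.42, adjusted p = 0.0675). The dimmer probe was also not called when no filter on dim probes was set (adjusted p = 0.0748).

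Mrc1 (NM_008625), the mannose receptor CD206 that marks resident, scavenging macrophages, had levels of −1.35 and −0.91 in the Input and of −1.92 and −2.03 in the FLAG IP. The Input arrays differed by 0.44 and the closest arrays of the groups by 0.58. Mrc1 fell by 0.85 ± 0.20 (limma adjusted p = 0.0323), or 1.80-fold. This was the least secure of the calls. It ended without Input replicate 1 (−1.07, adjusted p = 0.0747), Input replicate 2 (−0.63, adjusted p = 0.177), FLAG IP replicate 1 (−0.90, adjusted p = 0.0530) or FLAG IP replicate 2 (−0.80, adjusted p = 0.0642), and also with no filter on dim probes (adjusted p = 0.0682).

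**Figure D2:**
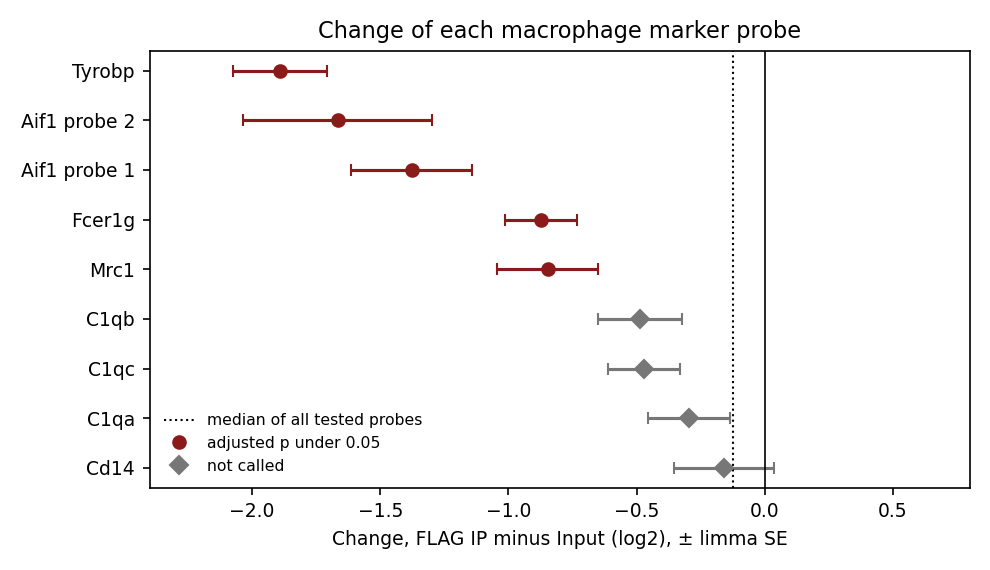
Change of each macrophage marker probe, FLAG IP minus Input on the log2 scale (horizontal axis), with limma standard errors; circles were called and diamonds were not, and the dotted line is the median of all tested probes. The changes run from −1.89 for Tyrobp to −0.16 for Cd14, and the 4 uncalled probes are those nearest to 0.

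C1qa, C1qb and C1qc encode the A, B and C chains that assemble into C1q, the recognition subunit that starts the classical complement pathway. The genes neighbour each other on mouse chromosome 4. C1qa (NM_007572) had levels of −0.18 and −0.29 in the Input and −0.41 and −0.65 in the FLAG IP, C1qb (NM_009777) −1.51 and −1.49 against −1.84 and −2.13, and C1qc (NM_007574) 0.25 and 0.14 against −0.32 and −0.23. For each chain both FLAG IP arrays were below both Input arrays, by at least 0.12, 0.34 and 0.37 in that order. The changes were −0.29 ± 0.16 for C1qa, −0.49 ± 0.16 for C1qb and −0.47 ± 0.14 for C1qc, and none passed in limma at the settings used for all values (adjusted p = 0.204, 0.0757 and 0.0575). Their 95% intervals, unadjusted, ran from −0.71 to 0.12, from −0.91 to −0.06 and from −0.84 to −0.10. C1qb was called without FLAG IP replicate 1 (−0.63, adjusted p = 0.0429), C1qc with trend and robust moderation (adjusted p = 0.0386), and all 3 chains under spike-in scaling.

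The chains were then compared with each other within arrays. The level of C1qb minus C1qc was −1.76 and −1.64 in the Input and −1.53 and −1.90 in the FLAG IP, a shift of −0.02 against a largest replicate gap of 0.38. C1qa minus C1qc shifted by 0.18 against a largest replicate gap of 0.33. C1qa minus C1qb shifted by 0.19, from 1.33 and 1.20 to 1.43 and 1.48, against a gap of 0.12 between replicates. The exact permutation p was 1 for the first of these 3 shifts and 0.333, the smallest possible, for the other two.

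Cd14 (NM_009841), a co-receptor that hands bacterial lipopolysaccharide to the TLR4 complex, was the marker with the smallest change. Its levels were −2.91 and −2.85 in the Input and −2.82 and −3.26 in the FLAG IP, so the groups overlapped. The change was −0.16 ± 0.20 (limma adjusted p = 0.552), with a 95% interval from −0.67 to 0.35, and without FLAG IP replicate 2 it was 0.061.

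Promoter sequences were examined because the markers share a cell type. Macrophage promoters commonly carry purine-rich boxes bound by the ETS factor PU.1, and the letters GAGGAA, the core of such a box, were searched on both strands. RefSeq promoters of GRCm38.p6, from 250 bases before to 50 after the start, were at hand for 6 of the 10 genes (Aif1, Fcer1g, Mrc1, Cd68, C1qb and C1qc). The box was found in 5 of these 6, all but Fcer1g, and in 28.3% of all 32851 promoters in the table. One window of 30 bases is shown for each analysed gene with a match, on the strand of the gene, 5′ to 3′, with the box or its complement in capitals. For Mrc1, which had 3 matches, the one nearest the start is shown.
Aif1 (chr17:35176053-35176082, minus strand, 7 bases before the start): tagccgtggtgataggcacccagTTCCTCc
Mrc1 (chr2:14229367-14229396, plus strand, 35 bases before the start): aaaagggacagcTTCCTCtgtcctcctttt
C1qb (chr4:136886213-136886242, minus strand, 30 bases before the start): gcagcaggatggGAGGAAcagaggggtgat
C1qc (chr4:136893090-136893119, minus strand, 193 bases before the start): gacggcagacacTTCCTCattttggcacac
The box was present both in genes that were called lower and in genes that were not. A match is a description of these letters and was not tested as a binding site.

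Other transcripts of macrophage surface and identity were mostly lower as well. Of 22 listed genes 17 were tested with 26 probes. Of these probes 16 (61.5%) were called lower, 2 higher and 8 not called, with a median change of −0.69. Over all tested probes the shares were 20.0% lower and 15.6% higher. Msr1, a scavenger receptor for modified lipoproteins, fell by 1.33 ± 0.27 (limma adjusted p = 0.0228), and Cd48, a leukocyte surface ligand well above background on 1 of the 2 FLAG IP arrays, by 1.31 ± 0.29 (adjusted p = 0.0271). Stab1, the scavenger receptor stabilin-1, fell by 1.05 ± 0.13 (adjusted p = 0.00918), with levels of −0.49 and −0.48 in the Input and −1.55 and −1.51 in the FLAG IP. Cd163, which clears haemoglobin and haptoglobin complexes, fell by 1.03 ± 0.15 (adjusted p = 0.0122). The defining marker Adgre1, which encodes an adhesion receptor of mature macrophages, fell by 0.74 ± 0.15 with its brighter probe (adjusted p = 0.0249), and its dimmer probe was not called. Both probes called higher belonged to Lyve1, a hyaluronan receptor of lymphatic endothelium and of some resident macrophages, whose brighter probe rose by 0.92 ± 0.16. Cx3cr1 was not called with either probe (−0.30 for the brighter and −0.13 for the dimmer), and Mertk (0.06) and Itgb2 (−0.39) were not called. Ptprc was called lower with its brightest probe (−0.82). These genes, Adgre1 and Lyve1 were named after their values were seen.

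Detection of the surface and identity genes was uneven. Adgre1, Cx3cr1, Cd163 and Ptprc were well above background on all arrays with their brightest probe, whereas Itgam and Ccr2 were not on any array. Spi1, the gene of PU.1 itself, was well above background on 1 of 4 arrays and was not tested.

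Probes in a list of ITAM adaptor partners, kinases and other signalling proteins were also often lower. In that list 17 genes were tested with 24 probes, of which 11 (45.8%) were called lower and 0 higher, with a median of −0.60. Over all tested probes 20.0% were called lower and 15.6% higher. Clec5a, a lectin receptor that signals through DAP12, fell by 1.13 ± 0.16 (limma adjusted p = 0.0114). Fcgr2b, the inhibitory Fc receptor for IgG, fell by 1.07 ± 0.17, Lcp2, the adaptor SLP-76, by 0.88 ± 0.16, and Btk, a cytoplasmic tyrosine kinase, by 0.85 ± 0.16. Trem2, the DAP12-coupled lipid receptor, was not called at −0.61 ± 0.35 (adjusted p = 0.221), with overlapping levels of −0.15 and −0.86 in the Input and −1.46 and −0.78 in the FLAG IP. Syk, the kinase recruited by phosphorylated ITAMs, was at −0.16 ± 0.19 (adjusted p = 0.556) and was not called. Of the other tested Fc receptor genes, Fcgr1 was called lower (−0.72 ± 0.18). Fcgr3 (−0.08 for the brighter probe and −0.37 for the dimmer) and Fcer1a (−0.51) were not called. These genes were named after their values were seen. Fc receptor genes are related in sequence, and probes could share signal among them.

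Beyond the C1q chains, the classical complement list had 12 genes tested with 18 probes. Of these, 6 (33.3%) were called lower and 0 higher, beside 20.0% and 15.6% of all tested probes. The list median was −0.60. C1ra, the protease that activates the C1 complex, fell by 0.90 ± 0.16 (limma adjusted p = 0.0171), from 1.82 and 2.03 in the Input to 1.11 and 0.94 in the FLAG IP. The companion protease C1s1 was at −0.69 ± 0.29 (adjusted p = 0.128). Serping1, the C1 inhibitor, fell by 0.93 ± 0.25, Calr, the chaperone calreticulin that also binds C1q, by 0.84 ± 0.17, and Cfp, properdin, by 0.51 ± 0.14. The other probe of Calr had a change of 0.07, and the call ended when its probes were averaged (−0.38, adjusted p = 0.210).

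A further list held CSF1 receptor ligands, cytokine receptors and macrophage transcription factors. Its counts of calls were near the shares over all tested probes and are not read as a result. Spi1 and Ikzf1 were in this list but were not tested. Of the ligands of the CSF1 receptor, Csf1 was at −0.82 ± 0.25 (limma adjusted p = 0.0599) and Il34 at −0.0042 ± 0.31 (adjusted p = 0.992), and neither was called. Among these ligands, cytokine receptors and transcription factors 15 probes of 11 genes were tested, of which 3 were higher and 2 lower, with a median of −0.03, beside 15.6% higher and 20.0% lower over all tested probes. The counts were 1 higher and 9 lower under spike-in scaling, and 1 higher and 0 lower without either Input array. Runx1, a transcription factor of blood cells, was among the 3 higher probes, with a fitted change of 2.76. It was not well above background on either Input array and entered the fit only through the FLAG IP arrays. Its call is therefore not read as a result. Irf8, a transcription factor required for monocyte and dendritic cell development, was called higher with both probes, with 0.62 ± 0.16 for the brighter (adjusted p = 0.0383). Its change was −0.31 under spike-in scaling, where the median of all probes moved by −0.93. Csf2ra, a chain of the GM-CSF receptor, fell by 0.60 ± 0.14.

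The lipopolysaccharide list, to which Cd14 belongs by function, had 14 genes tested with 18 probes, with a median of −0.11. Of these probes 1 was called higher and 1 (5.56%) lower, beside 15.6% and 20.0% of all tested probes. Tlr4, the signalling receptor, rose by 1.20 ± 0.21 (limma adjusted p = 0.0163), from −5.55 and −5.42 in the Input to −4.52 and −4.04 in the FLAG IP, both near the lower end of the signals measured. Its call ended under spike-in scaling (0.28, adjusted p = 0.567) and without Input replicate 1 (1.14, adjusted p = 0.0936) or Input replicate 2 (1.27, adjusted p = 0.0754). Its partner Ly96 (MD-2) was at −0.35 ± 0.15 (adjusted p = 0.134). Tlr2 fell by 0.69 ± 0.13. Tirap, an adaptor of the receptor, was at 0.56 ± 0.16 (adjusted p = 0.0520) and Irak1, a downstream kinase, at −0.52 ± 0.22 (adjusted p = 0.127).

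Lysosomal and secreted products had 13 genes tested with 17 probes, with a median of −0.57. Of these probes 9 (52.9%) were called lower and 0 higher, beside 20.0% and 15.6% of all tested probes. Lgmn, the protease legumain, fell by 1.11 ± 0.15, Lyz1, a lysozyme, by 0.92 ± 0.13, and Ctss, cathepsin S, by 0.69 ± 0.14, with limma adjusted p between 0.0101 and 0.0218. Lyz1 and Lyz2 are near-identical, so their probes may not tell them apart. The cytokine and chemokine genes Il1b, Tnf, Il10, Ccl3, Ccl4 and Cxcl2, and also Gpnmb, were not well above background on any array. The chemokine gene Ccl2 was well above background on all 4 arrays and was not called (−0.04 ± 0.24). These genes were named after their values were known. In the antigen presentation list 1 of 11 probes (9.09%) was called lower and 0 higher, beside 20.0% and 15.6% of all tested probes. The lower probe was that of Cd74, the invariant chain, which fell by 1.46 ± 0.17 (limma adjusted p = 0.00785). The list median was −0.35. The other genes of the list were not called, among them H2-DMa at 0.55 ± 0.18, H2-Oa at −0.58 ± 0.34 and the transactivator Ciita at −0.62 ± 0.33. The probes given for H2-Oa and Ciita were well above background on 1 of the 2 FLAG IP arrays.

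**Figure D3:**
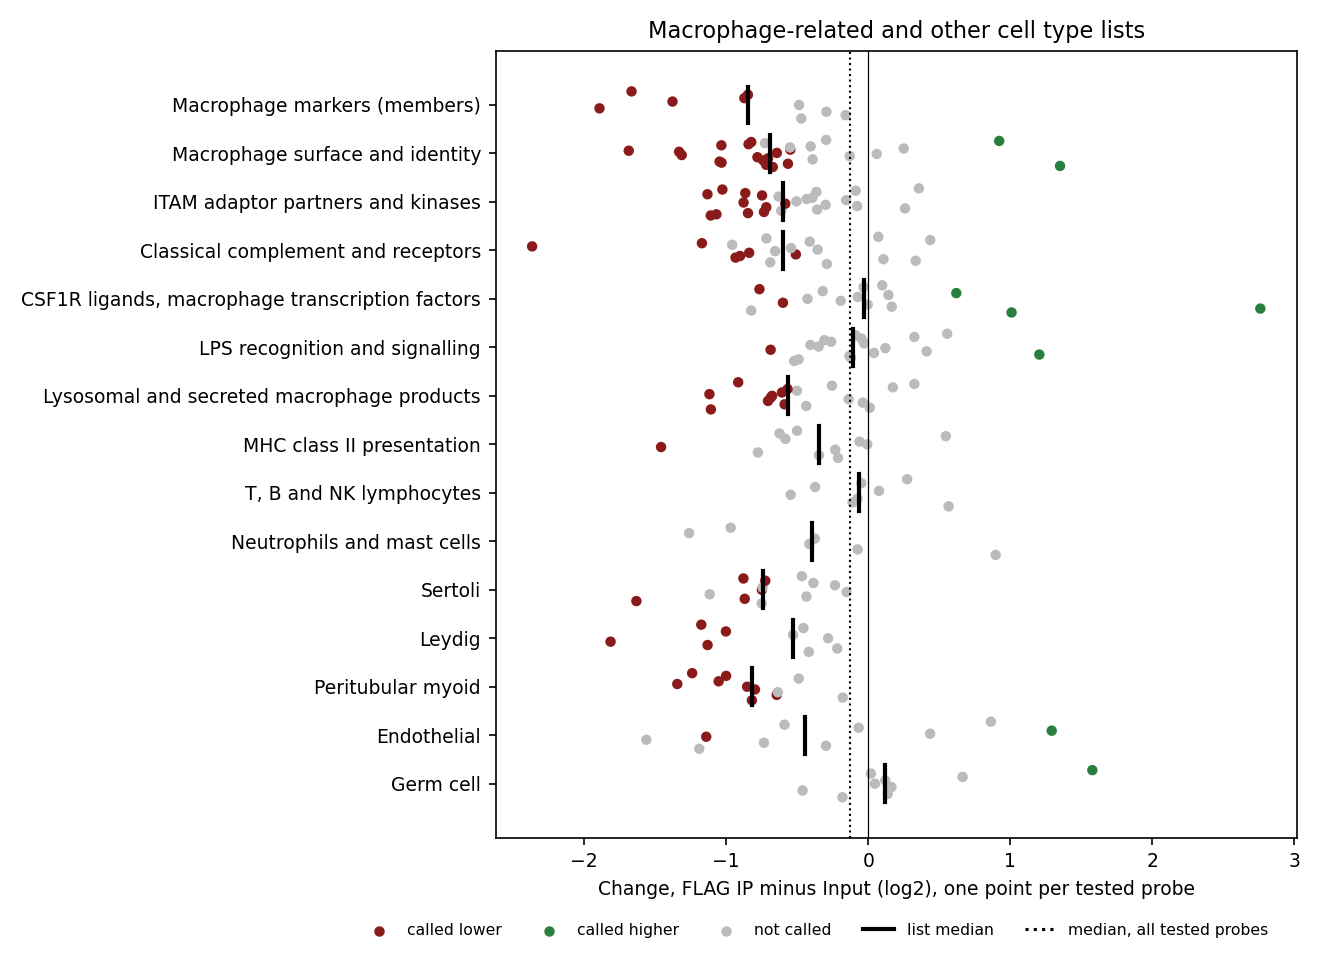
Change of every tested probe, FLAG IP minus Input on the log2 scale (horizontal axis), in the macrophage markers, 7 lists of related genes and 7 lists of other cell types (vertical axis), coloured by call, with list medians as bars and the median of all tested probes dotted. The markers have a median of −0.85 over probes, next to −0.82 for peritubular myoid genes, and the germ cell list has a median of 0.12.

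These list counts depended on both Input arrays being present. Without Input replicate 1 and without Input replicate 2, the number of probes called lower was 1 and 1 for surface and identity genes, 0 and 0 for ITAM partners, 1 and 1 for complement and 0 and 0 for lysosomal products. Without FLAG IP replicate 2 the complement count was 3. Over all probes the lower calls dropped to 775 and 641 in these fits, and the member probes called lower to 2 and 1.

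Markers of other cell types were measured on the same arrays, and their part in the results above was not tested. Lymphocyte genes had 8 of 16 probes tested and 0 called, with summed signals of 0.445 and 0.458 in the Input and 0.442 and 0.408 in the FLAG IP. Neutrophil and mast cell genes had 6 of 13 probes tested and 0 called, with summed signals of 2.88 and 2.25 against 1.80 and 2.17. Among somatic cells of the testis, 5 of 13 Sertoli, 4 of 9 Leydig and 8 of 11 peritubular myoid probes were lower. Their medians were −0.74, −0.53 and −0.82 in that order. Of 10 endothelial probes 1 was lower and 1 higher, with a median of −0.44. Over all tested probes 20.0% were called lower and 15.6% higher. With the brightest probe of each gene the medians were −0.67 for the macrophage markers, −0.74 for Sertoli, −1.002 for Leydig, −0.64 for peritubular myoid and −0.44 for endothelial genes, so the order of the lists depended on how probes were counted. No test of a difference between lists was made. Of 9 germ cell probes 1 was higher and 0 were lower. The higher one was that of Nanos2, the gene tagged in the transgene (1.58, limma adjusted p = 0.0107), and the other 8 were not called. The summed germ cell signal was 59.3 and 59.2 in the Input and 58.8 and 78.5 in the FLAG IP.

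**Figure D4:**
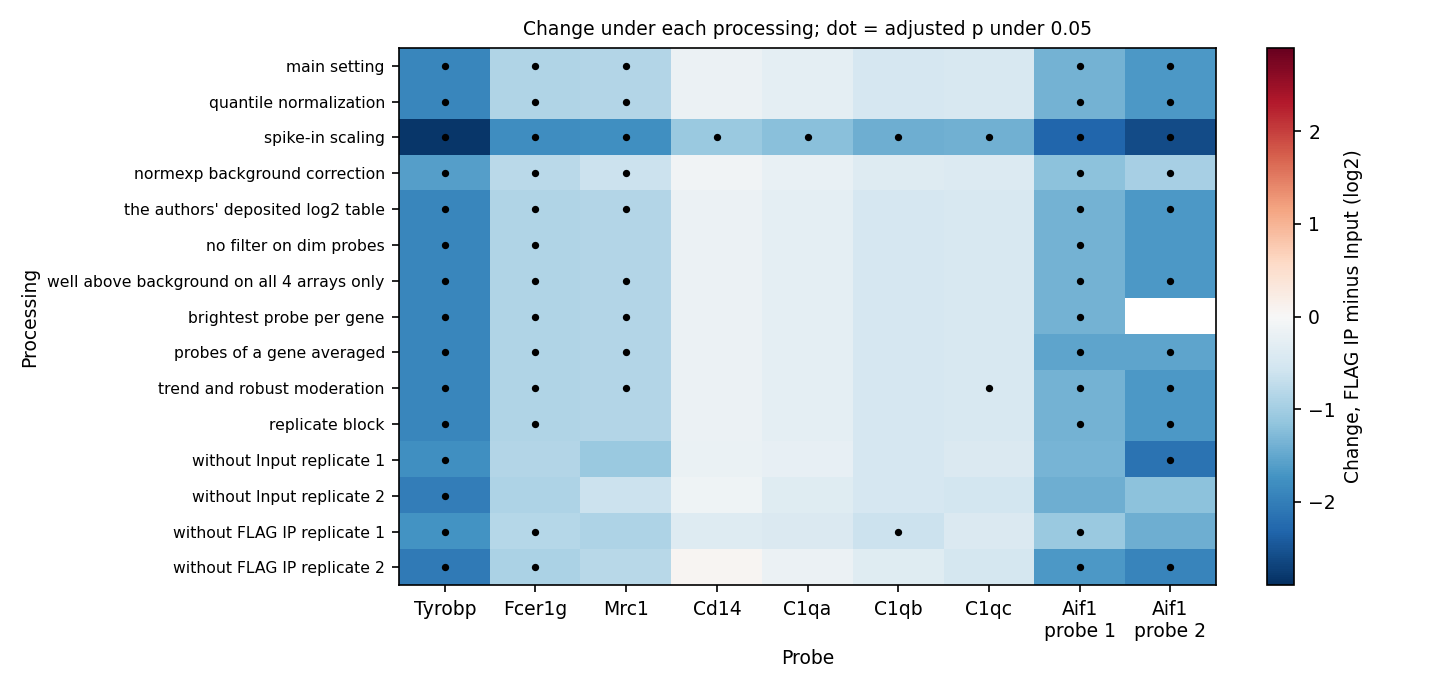
Change of each macrophage marker probe (columns) under the main setting and each alternative processing (rows), coloured by the log2 change, FLAG IP minus Input, with a dot where the adjusted p was under 0.05. Tyrobp is called in every row, Mrc1 loses its dot whenever 1 array is left out, and scaling to spike-in spots lowers all columns together.

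Scaling to spike-in spots moves every probe on an array by the same amount, so it changes the calls and not the differences between probes. Scaled to spike-in control spots, all 9 probes were called lower, with a median of −1.77, while the median of all tested probes moved by −0.93 and the calls over all probes were 712 higher and 15974 lower, against 4330 and 5579. The members' median minus that of all tested probes was −0.72, a value that such a shift cannot alter. It was −0.52 with the brightest probe per gene and −0.51 without Input replicate 2.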

How the data were processed

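The 4 arrays were grouped by the sample titles. Per the file headers, Agilent Feature Extraction (9.5 per the submitters' processing notes) read the spots, and the deposited intensity files hold a background-subtracted processed signal. The authors' deposited table is on a log2 scale and was within 0.01 of log2 of that signal less 1 constant per array for 99.6% of probes, with column medians of 6.18, 6.25, 6.25 and 6.15 (Input 1, Input 2, FLAG IP 1, FLAG IP 2); which software scaled it was not given in the sources.

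Control spots and 62 to 90 outlier spots per array were left out, 0 spots were saturated, and spots of a probe were averaged. Each probe's log2 processed signal was centred on the log2 75th percentile of its array. Accessions without version were matched to RefSeq transcripts of GRCm38.p6, which named 22951 probes (55.7%). The 27830 probes flagged well above background on the 2 arrays of either group, at a share of 0.5 of their spots or more, entered a two-sided limma fit (3.58.1, in R 4.3.3) with no covariates, and p-values were adjusted by Benjamini and Hochberg's method over these probes. Confidence intervals are the model's 95% intervals. The fit was tested on simulated data. All arrays lay on 1 slide and were scanned in 1 session, so no batch term could be fitted.

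The members and lists were chosen with earlier results of these data known, and lists are described by counts and medians only. From each macrophage-related list the text names up to 4 genes with the largest change of their brightest probe, called ones first. It also names genes tied directly to a member by role. Lists of other cell types are given as counts, with Nanos2 alone named, after its value was seen. One gene that the rule chose is not reported here. Same-numbered arrays deviated from their group means in opposite directions (r = −0.38 over probes), so the numbers were not taken as pairs.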

Additional observations from a re-analysis of the deposited data

How the results depend on the processing

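The 9 member probes had a median change of −0.85 and 5 of them were called lower. The count was 9 with a median of −1.77 under spike-in scaling, 3 with no filter on dim probes, and 1 to 4 when any 1 array was left out, with medians from −0.85 to −0.63. None was called higher under any setting run. Over all probes, 4330 were higher and 5579 lower. These became 712 and 15974 under spike-in scaling and 3328 and 3609 with no filter, and ranged from 1166 to 4866 higher and from 641 to 5704 lower with 1 array left out. With the replicate number as a block 2874 were higher and 2700 lower and 4 member probes were lower, the call of Mrc1 ending (adjusted p = 0.0661). The labels do not say whether a number marks shared animals. The crossed pairing, added after seeing the data, gave 5588 higher and 7947 lower, and 7 member probes lower.

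Of the 22 called genes outside the members that the naming rule chose, 2 and 1 stayed called without Input replicate 1 and 2, 20 and 19 without FLAG IP replicate 1 and 2, 12 with the block, 16 with no filter, 17 under normexp background correction and 20 under spike-in scaling. The direction changed for Cd14 without FLAG IP replicate 2 (0.061, the changes with 1 array left out running from −0.38 to 0.061). It changed for Ciita (0.15), H2-Oa (0.11) and Il34 (0.11) under normexp, and for H2-DMa (−0.38), Irf8 (−0.31) and Tirap (−0.37) under spike-in scaling. It also changed for Il34 without Input replicate 2 (0.21) or FLAG IP replicate 2 (0.37) and for Syk without Input replicate 1 (0.045, the changes running from −0.36 to 0.045). Normexp used median spot signals. A slide or scan block was not run, since all arrays share both.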
